A study of Mus musculus with 6 samples.

Results

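The genes described are the fibroblast growth factor (FGF) receptors Fgfr1, Fgfr2, Fgfr3 and Fgfr4, the ligands Fgf1 and Fgf2, the related intracellular factor Fgf11, and the carrier Fgfbp1. They were taken by name, 8 genes of the 30349 listed, and all 8 are in the table. RNA was sequenced as 3' digital gene expression, a method that reads transcripts at their 3' ends, in primary epidermal keratinocytes of mice at postnatal day 2. The groups were 3 libraries of genotype wild type (replicates 13, 14 and 15) and 3 of genotype p63 alphaKO (replicates 9, 10 and 11). Cells of both genotypes reached confluence over 5 to 6 days in medium of low calcium (0.05 mM) that held EGF at 2.5 ng/mL and chelated serum at 4%. Values given library by library follow the order of these replicate numbers. The culture medium, as the labels give it, names no added FGF. The labels do not say which part of the gene the p63 alphaKO allele lacks, nor whether each library is from its own animal, so p-values measure the spread between these libraries, which may be technical.

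FGF receptors are tyrosine kinases that pair when an FGF and a heparan sulfate chain bind them together, and they signal through the adaptor Frs2, phospholipase C gamma and the Ras to ERK cascade. In skin, dermal cells make the ligands Fgf7 and Fgf10, and keratinocytes answer through the IIIb splice form of Fgfr2. Fgfr3 is a receptor of the epidermis as well, and Fgfr1 is best known from mesenchymal cells. Fgfbp1 is a secreted protein that lifts FGFs off heparan sulfate in the matrix. p63, encoded by Trp63, is the transcription factor that stratified epithelia depend on, and Fgfr2 and Fgfr3 have been reported among its target genes.

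The libraries held 1699716 to 3215333 reads. Those of wild type held 3180984, 3215333 and 3146374 reads, and those of p63 alphaKO 2188705, 2999246 and 1699716. Every p63 alphaKO library thus held fewer reads than every wild type library, and replicate 11 held the fewest, so raw reads are not comparable between genotypes without scaling. Each level is a CPM value (reads of the gene per 1000000 reads). The level worth 3 reads ranged from 0.93 to 1.76 CPM over the libraries. Keratinocyte markers (Krt5, Krt14, Trp63, Itga6, Dsp and Sfn) had sums between 28111 and 32489 CPM for wild type, and between 23698 and 34451 CPM for p63 alphaKO. On the first principal component, with 33.2% of the variance, p63 alphaKO replicate 11 (61.15) and wild type replicate 15 (13.55) lay apart from the other 4 libraries (-26.86 to -8.74). These libraries are therefore named beside the results they touch. On the second component, with 22.9% of the variance, the genotypes did not overlap. Wild type lay at -2.97, -23.77 and -38.98, and p63 alphaKO at 30.03, 26.44 and 9.24.

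Of the 8 genes, Fgfr1, Fgfr2, Fgfr3 and Fgfbp1 were measured well enough to test, and none differed between the genotypes past the threshold. Fgfr1 and Fgfr3 had lower mean levels in p63 alphaKO, by 3.25-fold and 2.22-fold on the fitted scale. Fgfr2 and Fgfbp1 had mean levels that were nearly equal in the 2 genotypes. Fgf1, Fgf2 and Fgf11 had 8, 1 and 3 reads in wild type and no read in p63 alphaKO, and Fgfr4 had no read in any library. The pooled depth was 9542691 reads for wild type and 6887667 for p63 alphaKO.

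**Figure D1:**
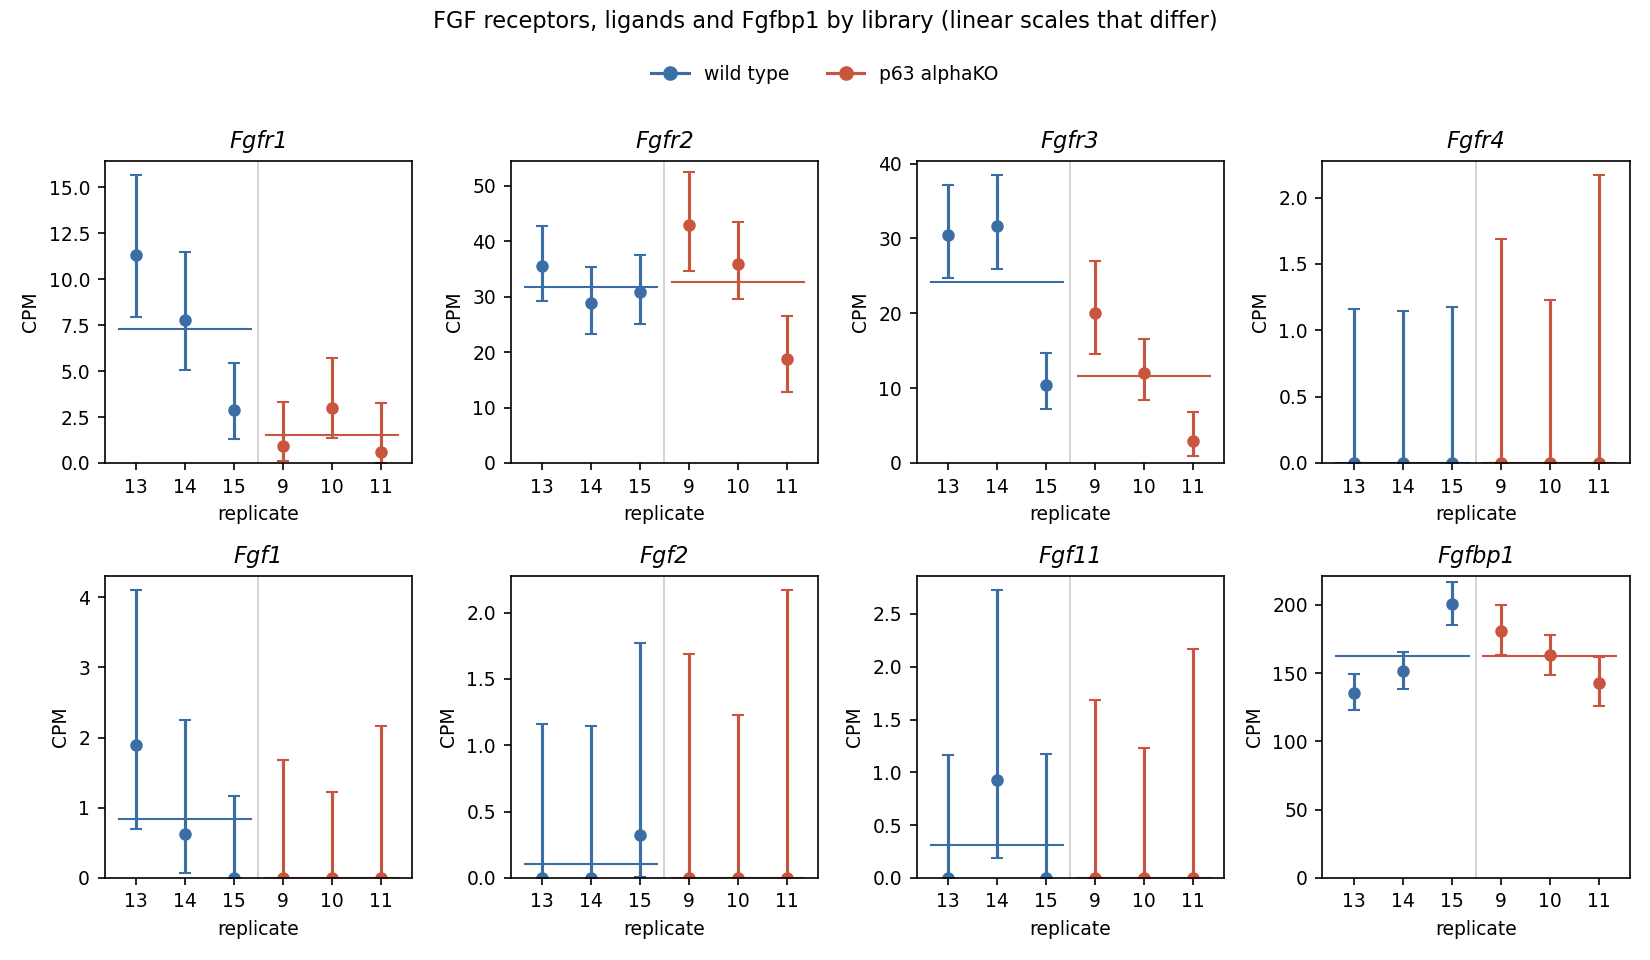
CPM of the 8 genes (y axes, linear, with a different scale in each panel) in each library, shown by replicate number (x axes). Points are libraries, bars are exact 95% intervals from counting error alone, and horizontal lines are group means. Fgfr1 and Fgfr3 are lowest in p63 alphaKO replicate 11, at 0.59 and 2.94 CPM, and the groups overlap in every panel.

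Before the values, the DNA just upstream of 2 of these genes is shown: Fgfr3, a receptor whose mean was lower in p63 alphaKO, and Fgfbp1, whose mean was nearly equal. No p63 site was searched for. The stretches come from RefSeq promoter windows on GRCm38.p6 (the mm10 build), where 6 of the 8 genes have a window. Each stretch ends at the base before the start of the gene in GENCODE vM21. That of Fgfr3 is the plus strand of chr5:33721474-33721673, and that of Fgfbp1 the minus strand of chr5:43981780-43982049. Capitals mark the GC box GGGCGG, read on either strand, in Fgfr3 and the TATA box TATAAA in Fgfbp1.
Fgfr3: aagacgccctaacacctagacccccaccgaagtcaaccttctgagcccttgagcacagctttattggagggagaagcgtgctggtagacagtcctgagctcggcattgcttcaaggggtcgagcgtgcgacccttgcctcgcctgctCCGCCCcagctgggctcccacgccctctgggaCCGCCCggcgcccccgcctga
Fgfbp1: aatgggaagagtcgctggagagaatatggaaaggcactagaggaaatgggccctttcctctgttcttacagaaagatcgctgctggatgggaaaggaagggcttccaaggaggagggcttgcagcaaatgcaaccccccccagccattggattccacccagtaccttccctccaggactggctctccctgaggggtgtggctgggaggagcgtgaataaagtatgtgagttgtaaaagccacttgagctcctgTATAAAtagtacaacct

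The Fgfr3 stretch holds 2 GC boxes and the Fgfbp1 stretch 1 TATA box, which begins 17 bases before the GENCODE gene start. Counted to the RefSeq start instead, the distance is -3 bases, so by that start the TATA box lies just inside the gene. Over 32851 RefSeq windows of 300 bases, on both strands, 35.7% held a GC box and 13.6% a TATA box. That share counts whole windows, and the whole Fgfr3 window held 4 GC boxes (a second Fgfr3 window held 2). The Fgfr3 window had 26 CG pairs (the second had 30) and the Fgfbp1 window 4, where the median window had 7. Among the genes not shown, the Fgfr4 window held 4 GC boxes and 20 CG pairs. The Fgfr2 window held neither motif and 4 CG pairs. A match of letters describes the sequence and does not show binding. No link between these sequence counts and the levels was tested.

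Fgfr1 was read at 11.31, 7.77 and 2.86 CPM across the wild type libraries, against 0.91, 3.00 and 0.59 CPM in those of p63 alphaKO. These levels rest on 36, 25 and 9 reads and on 2, 9 and 1 reads in the same order. The groups overlapped by a single pair of libraries, p63 alphaKO replicate 10 and wild type replicate 15, which had 9 reads each. The means were 7.31 ± 4.24 CPM (SD, n = 3) and 1.5 ± 1.31 CPM (SD, n = 3). The log2 fold change was -1.70 (SE 0.56, 95% interval -2.89 to -0.51) for p63 alphaKO minus wild type on log2(CPM + 1). The limma adjusted p (Benjamini-Hochberg) was 0.646. By p it was number 132 of the 11716 genes tested, of which 5, or 0.0427%, passed an adjusted p of 0.05.

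Fgfr1 did not pass when any library was left out (adjusted p 0.423 to 0.999), nor without both libraries that lay apart (log2 fold change -1.91, adjusted p = 0.229, a fit in which 0.413% of all genes passed). Its fitted size depended on the constant added before the log, at -0.88 with a pseudocount of 5 and -1.98 with 0.5. On recovered reads edgeR gave -2.15 and DESeq2 -2.20, with adjusted p of 0.632 and 0.601. Fgfr1 lies on chromosome 8 (25513654 to 25575718, plus strand, GRCm38). Of its 9 protein-coding transcripts, 6 end in the same last exon (25573745 to 25575718), so a 3' read seldom tells its splice forms apart.

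Markers of fibroblasts, in which Fgfr1 is well known, also varied between the libraries. The 11 fibroblast genes of the list came to 74.5, 64.3 and 29.9 CPM together across the wild type libraries, against 32.0, 78.0 and 15.3 CPM in those of p63 alphaKO. Vim was the largest single part of the sum in every library, at 26.39, 30.15 and 11.12 CPM in wild type. In p63 alphaKO it was at 14.61, 30.66 and 8.23 CPM. All 8 that were tested had a lower mean in p63 alphaKO on the log scale, none past the threshold, and Lum and Postn had no read in any library. Wild type replicates 13 and 14 had higher fibroblast sums than p63 alphaKO replicates 9 and 11, and higher Fgfr1 levels as well. The highest sum was in p63 alphaKO replicate 10 (Fgfr1 3.00 CPM), and that of wild type replicate 15 (Fgfr1 2.86 CPM) was lower. Melanocyte markers, given with Fgfr3 below, varied between the libraries as well. The part of fibroblast or melanocyte RNA in the Fgfr1 difference was not tested. In such bulk libraries, fewer cells of a type and less RNA per cell cannot be told apart.

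Fgfr3 was read at 30.48, 31.71 and 10.48 CPM across the wild type libraries, against 20.09, 12.00 and 2.94 CPM in those of p63 alphaKO. Wild type replicate 15 lay below 2 of the p63 alphaKO libraries, and the lowest level of each genotype was in the library that lay apart. The means were 24.2 ± 11.9 CPM (SD, n = 3) and 11.7 ± 8.58 CPM (SD, n = 3), on 232 and 85 pooled reads. The log2 fold change was -1.15 (SE 0.53, 95% interval -2.27 to -0.03, limma adjusted p = 0.775). It was number 660 by p, and 3.35% of all genes tested had an unadjusted p under 0.05 in this direction.

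The Fgfr3 difference moved with single libraries. It was -0.46 without p63 alphaKO replicate 11 (adjusted p = 0.839), -1.67 without p63 alphaKO replicate 9 and -1.64 without wild type replicate 15. With both replicate 11 and replicate 15 left out, levels of 30.48 and 31.71 CPM stood against 20.09 and 12.00 CPM, and the log2 fold change was -0.95 (adjusted p = 0.328). Melanocyte markers also varied between the libraries, lowest in the library of each genotype that lay apart. Together, 8 such genes came to 816.6, 752.6 and 303.4 CPM across the wild type libraries, against 551.2, 1018 and 232.2 CPM in those of p63 alphaKO, and their part in the Fgfr3 levels was not tested. Fgfr3 lies on chromosome 5 (33721674 to 33737068, plus strand), where 7 of its 13 protein-coding transcripts share the last exon at 33735414 to 33737068.

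Fgfr2, the main receptor through which keratinocytes answer dermal FGFs, was read at 35.50, 28.91 and 30.81 CPM across the wild type libraries. In those of p63 alphaKO it was read at 42.93, 35.99 and 18.81 CPM. Replicate 11 alone lay below all wild type libraries, and replicates 9 and 10 lay above all of them. The means were 31.7 ± 3.39 CPM (SD, n = 3) and 32.6 ± 12.4 CPM (SD, n = 3). The log2 fold change was -0.04 (SE 0.32, limma adjusted p = 0.998), with a 95% interval of -0.71 to 0.63, or 0.612-fold to 1.55-fold. Without p63 alphaKO replicate 11 the value was 0.31 (adjusted p = 0.831), so it has no stable sign.

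All 17 protein-coding transcripts of Fgfr2 end in the same last exon (chromosome 7, 130162451 to 130164217, minus strand), and no other annotated gene overlaps it. The epithelial IIIb and mesenchymal IIIc forms are therefore summed in these values. Of 7 splicing regulators known to act on Fgfr2, none passed (limma, 0 at an unadjusted p under 0.05), and 5 of 7 had a lower mean on the log scale. Esrp1 and Esrp2, which favour the IIIb form, had log2 fold changes of -0.11 and -0.15. Ptbp1, a repressor of exons, stood at -0.25 and Celf1 at -0.34, with adjusted p of 0.936 and 0.885.

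Fgfr4, a receptor of liver and developing muscle, had no read in any of the 6 libraries. Over all 16430358 reads, 3 reads would be 0.183 CPM, so a level up to that is allowed by counting error. The receptor genes together summed to 77.29, 68.39 and 44.15 CPM across the wild type libraries, against 63.93, 50.99 and 22.34 CPM in those of p63 alphaKO. The sum was lowest in replicate 11, where it rested on 38 reads.

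The make-up of the receptor reads also differed between libraries. Fgfr2 gave 45.9% (exact 95% interval 39.6 to 52.4), 42.3% (35.7 to 49.1) and 69.8% (61.4 to 77.3) of the receptor reads in wild type replicates 13, 14 and 15. In p63 alphaKO replicates 9, 10 and 11 it gave 67.1% (58.7 to 74.8), 70.6% (62.7 to 77.7) and 84.2% (68.7 to 94.0). Fgfr2 thus gave a larger share in all p63 alphaKO libraries than in wild type replicates 13 and 14, while wild type replicate 15 lay among the p63 alphaKO libraries. The intervals cover counting error only, and the shares compare libraries, not one receptor with another.

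**Figure D2:**
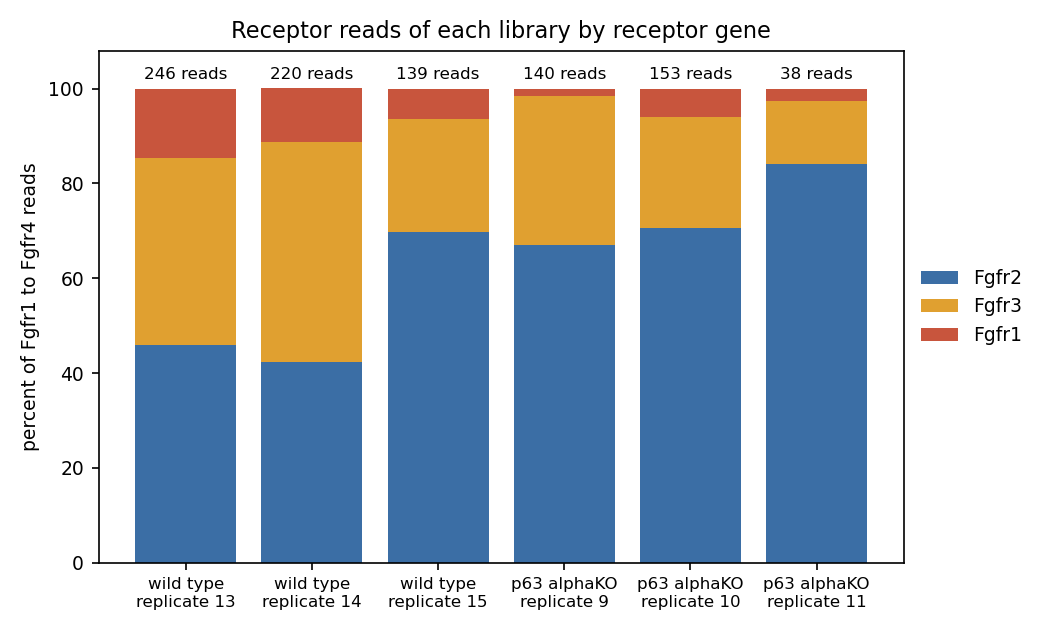
Share of the Fgfr1 to Fgfr4 reads (y axis, percent) that came from Fgfr2, Fgfr3 and Fgfr1 in each library (x axis), with the number of receptor reads above each bar. Fgfr4 had none. The Fgfr2 share is 42.3% and 45.9% in wild type replicates 14 and 13 and 67.1% to 84.2% in the other 4 libraries.

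Whether one receptor differed from another in its response was tested on the log2 ratio of 2 receptors within each library, a test chosen after the levels were seen. The Fgfr1 to Fgfr2 ratio was -1.57, -1.77 and -3.04 in the wild type libraries, against -4.52, -3.21 and -3.64 in those of p63 alphaKO. These groups did not overlap with a pseudocount of 1, with a difference of -1.66 (two-sided exact permutation p = 0.1, adjusted over 3 ratios 0.3, n = 3 per group). A pseudocount of 5 gave -0.85 (exact permutation p = 0.2), so the separation depended on that constant. The p63 alphaKO ratios rest on 2, 9 and 1 reads of Fgfr1. For Fgfr3 to Fgfr2 the difference was -1.11 (exact permutation p = 0.2, adjusted 0.3), and for Fgfr1 to Fgfr3 it was -0.55 (exact permutation p = 0.7, adjusted 0.7). With 3 libraries against 3, the smallest p this test can give is 0.1, so no ratio could pass.

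Fgfbp1, the carrier that frees matrix-bound FGFs, was read at 135.73, 151.39 and 200.44 CPM across the wild type libraries, against 180.84, 162.96 and 142.83 CPM in those of p63 alphaKO. All p63 alphaKO libraries lay within the wild type range. The means were 162.5 ± 33.8 CPM (SD, n = 3) and 162.2 ± 19.0 CPM (SD, n = 3), on 1550 and 1128 pooled reads. The log2 fold change was 0.01 (SE 0.23, limma adjusted p = 0.998), with a 95% interval of -0.47 to 0.49, or 0.720-fold to 1.41-fold. Its sign changed with the scaling, at -0.012 with TMM. Fgfbp1 lies on chromosome 5 (43978858 to 43981779, minus strand), and its 3 protein-coding transcripts share 1 last exon.

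The ligands of the set were at or near the limit of detection. Fgf1, which binds all FGF receptors, had 6, 2 and 0 reads in wild type replicates 13, 14 and 15 (1.89, 0.62 and 0 CPM) and none in p63 alphaKO. Pooled over each genotype, this is 0.838 CPM in wild type. With 3 reads over the 3 p63 alphaKO libraries as the floor (0.436 CPM), the wild type level was 1.92-fold that floor. The 8 wild type reads are taken as exact there, and counting error is allowed in p63 alphaKO only. The value is therefore not a lower bound on the fold, and 6 of the 8 reads came from 1 library. Fgf2, an FGF held on matrix heparan sulfate, had 1 read, in wild type replicate 15. Fgf11, a factor that stays in the cell and is not a receptor ligand, had 3 reads, all in wild type replicate 14. Both are at or under the floor in both genotypes, so no fold is given.

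Overlapping genes limit what these low counts show. The last exon of Fgf1 (chromosome 18, minus strand) lies within the span of Arhgap26 on the opposite strand, and that of Fgf2 (chromosome 3, plus strand) overlaps Nudt6 on the opposite strand and Gm43439 on the same strand. Whether strand was used in counting is not given in the sources used here, so reads of the opposite-strand partners cannot be told apart, and for Gm43439 strand could not separate them. For Fgfr1, Fgfr2, Fgfr3, Fgfr4, Fgf11 and Fgfbp1 no annotated gene overlaps the last exon that most of their transcripts use.

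By limma, 0 of the 4 tested genes passed over all genes, where 2 (Fgfr1 and Fgfr3) had an unadjusted p under 0.05, against 6.36% of all genes. edgeR, which called 0.0171% of all genes, and DESeq2, which called 0.154%, also called 0 of the 4, with Fgfr1 the 1 gene at an unadjusted p under 0.05 in each. Of all 11716 genes, 721 by edgeR and 649 by DESeq2 had an unadjusted p under 0.05. The groups overlapped for all 4, while 11.5% of all genes tested had groups that did not overlap.

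**Figure D3:**
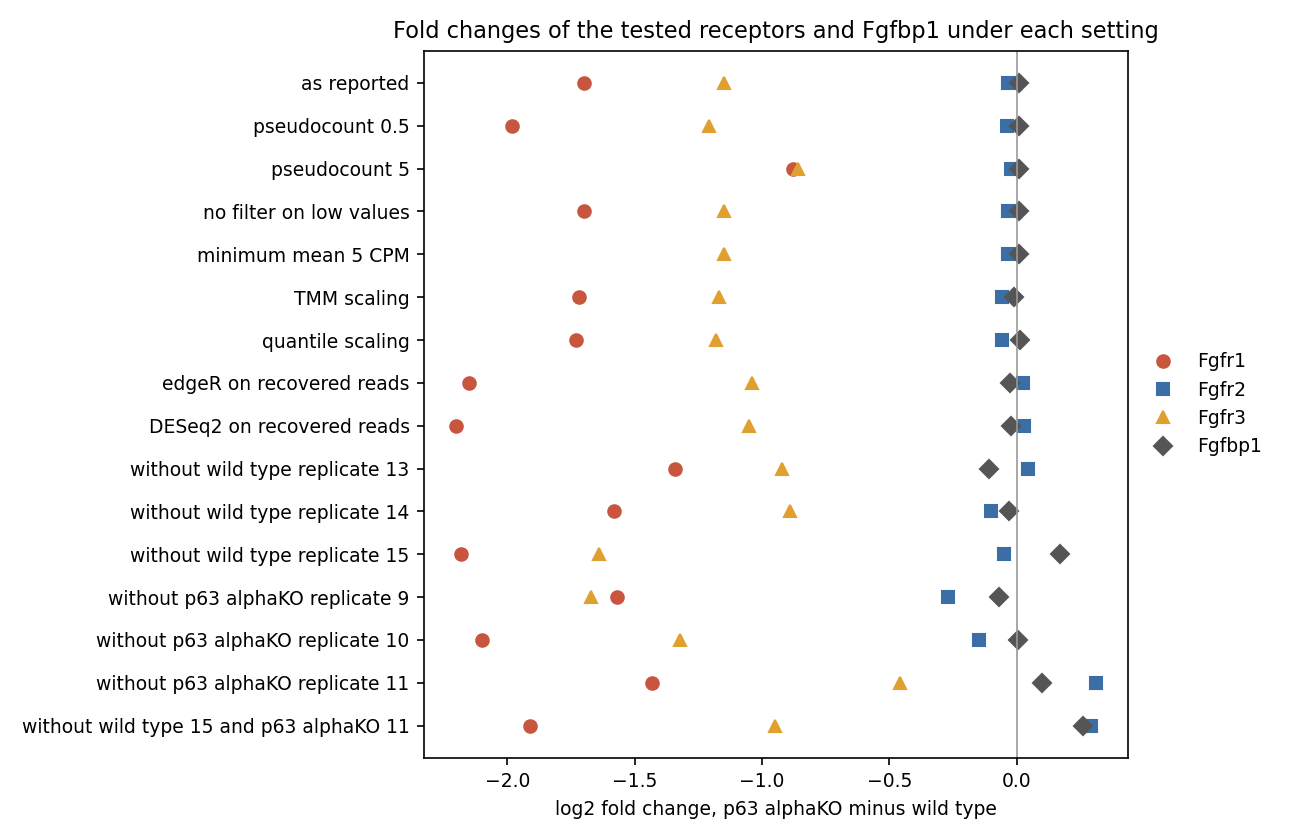
Log2 fold change (x axis, p63 alphaKO minus wild type) of Fgfr1, Fgfr2, Fgfr3 and Fgfbp1 as reported and under each alternative test, scaling, filter or set of libraries (y axis). Fgfr1 lies between -2.20 and -0.88 and Fgfr3 between -1.67 and -0.46, while Fgfr2 and Fgfbp1 lie on both sides of 0.

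The rest of the FGF pathway was followed through 99 other genes in 6 lists, of which 98 are in the table and 74 were tested. By limma none passed, and 4 had an unadjusted p under 0.05 (5.41%, against 6.36% of all genes). Neither edgeR nor DESeq2 called any, with 4 and 5 at an unadjusted p under 0.05, against 721 and 649 of all 11716 genes. Lower means were found for 45 of the 74, with a median log2 fold change of -0.08, against 49.3% and 0.01 over all genes tested. Groups did not overlap for 4 of the 74, against 11.5% of all genes tested.

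Of 19 other FGF genes, 7 had a read in any library and 2 were tested. Fgf3, known from inner ear and tooth development, was at 4.40, 0.62 and 3.49 CPM across the wild type libraries, against 0.91, 6.66 and 1.76 CPM in those of p63 alphaKO. Fgf22, a ligand of the Fgf7 subfamily, was at 4.71, 0 and 2.86 CPM and at 2.28, 3.00 and 0.59 CPM in the same order. Both genes overlapped between the genotypes and had log2 fold changes of 0.01 and -0.03 (limma adjusted p = 0.998 for each). Fgf7, the dermal growth factor of keratinocytes, was listed at 0.63 CPM in wild type replicate 13 and at 0 in the other libraries, and Fgf10 was at 0 in all.

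Among co-receptors and FGF-binding proteins, 7 of 11 were tested, 4 of them lower, with a median of -0.30. Flrt1, a membrane protein that binds FGF receptors, was at 17.28, 10.88 and 21.28 CPM across the wild type libraries, against 34.71, 33.32 and 40.56 CPM in those of p63 alphaKO. Every p63 alphaKO library lay above every wild type library, with a log2 fold change of 1.13 (SE 0.31, limma adjusted p = 0.475). Its relative Flrt2 was on the other side, at -0.49 (adjusted p = 0.780), with overlapping groups. The short receptor Fgfrl1, which lacks a kinase, stood at -0.38, and Fgfbp3, a second FGF carrier, at 0.33, with means of 60.9 ± 7.73 CPM for wild type, against 77.5 ± 16.4 CPM for p63 alphaKO (SD, n = 3).

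**Figure D4:**
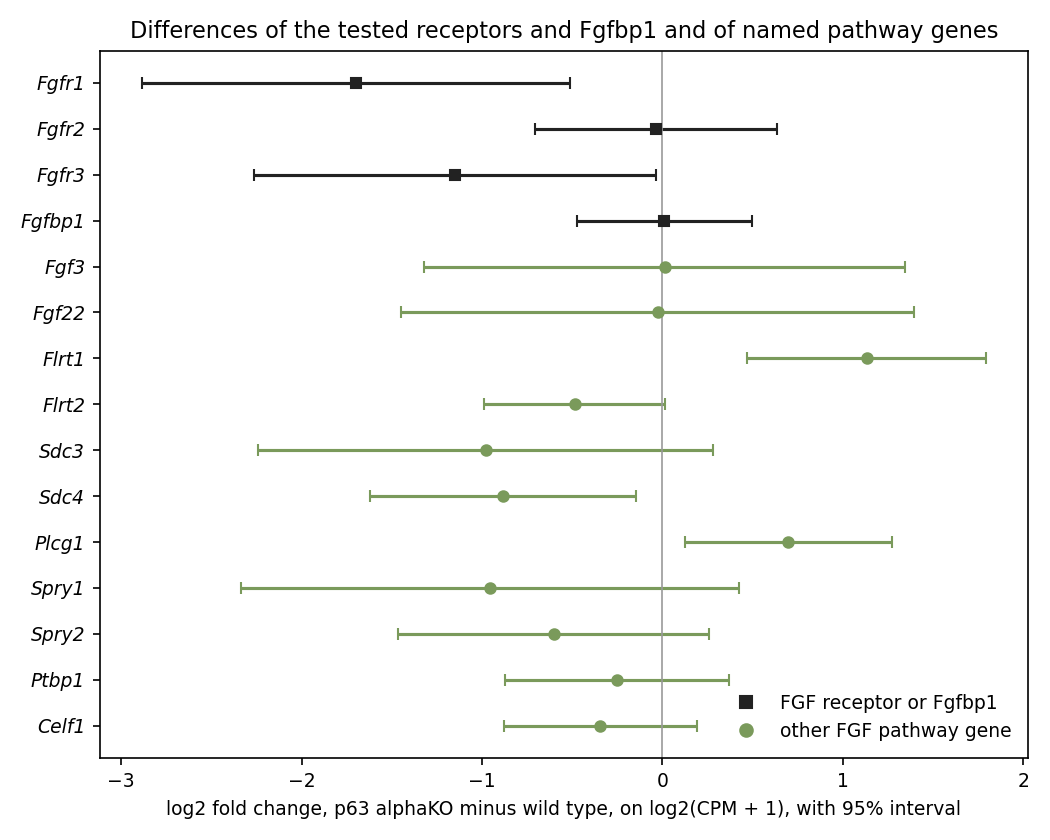
Log2 fold change with its 95% interval from limma (x axis, p63 alphaKO minus wild type on log2(CPM + 1)) of the 4 tested receptors and carrier (squares) and of 11 other pathway genes (circles), chosen by smallest p in each list. Fgfr1 at -1.70 and Fgfr3 at -1.15 lie lower than 0, Flrt1 at 1.13 lies higher, and no gene passed after adjustment.

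Heparan sulfate core proteins and enzymes, which build the chains that FGFs need, had 15 of 22 members lower (median -0.15). Sdc4, a syndecan, was at 38.96, 37.92 and 73.38 CPM across the wild type libraries, against 43.38, 19.33 and 19.40 CPM in those of p63 alphaKO. Its log2 fold change was -0.88 (adjusted p = 0.737), and -0.39 without both libraries that lay apart. Sdc3 stood at -0.98 (adjusted p = 0.843), from at most 3.14 CPM. Sdc1, the main syndecan of epidermis, was at 851.6 CPM in wild type, with a log2 fold change of 0.16.

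Receptor adaptors and the cascade below them had 14 of 25 tested members lower (median -0.06). Plcg1, the phospholipase that binds active FGF receptors, was at 127.57, 87.04 and 58.13 CPM across the wild type libraries, against 158.46, 140.96 and 125.20 CPM in those of p63 alphaKO (log2 fold change 0.70, limma adjusted p = 0.729). Its groups overlapped through wild type replicate 13. The adaptor Frs2 stood at 0.05.

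Genes that FGF and ERK signalling commonly induce had 6 of 11 tested members lower (median -0.02, 0 at an unadjusted p under 0.05). The feedback inhibitors Spry1 and Spry2 stood at -0.96 and -0.60 (limma adjusted p = 0.884 and 0.881), and their groups overlapped. Dusp6, a phosphatase that acts on ERK, was at -0.02, and the ETS factors Etv4 and Etv5 at 0.34 and 0.70. EGF was in the medium of both genotypes, and it acts on the same cascade. The part of EGF in these levels was not tested.

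The genes whose levels followed the tested receptors and carrier most closely over the 6 libraries were found by the root mean square difference of centred log2(CPM + 1) values, among 9164 genes whose mean reached 5 CPM. For Fgfr2 they were Pkp1 (0.062), Ppfia1 (0.070) and Ppl (0.070). Pkp1, for example, was at 504.61, 438.62 and 418.98 CPM across the wild type libraries. In those of p63 alphaKO it was at 603.24, 541.19 and 261.56 CPM, lowest in replicate 11. That likeness to Fgfr2 follows from how Pkp1 was chosen. For Fgfr3 they were Fam69a (0.245), Fosl1 (0.295) and Map3k11 (0.320), and for Fgfbp1 they were Ccnh (0.057), Cnot10 (0.064) and Ptma (0.064). Fgfr1, with a mean of 4.41 CPM, was under the minimum. Leaving out 1 library kept 0 to 2 of the 3 genes for Fgfr2 and Fgfr3 and 0 to 1 for Fgfbp1.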

How the data were processed

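The submitters' processing notes list STAR, HTSeq and mm10 without roles, and which annotation, filters or molecular identifiers were used is not given in the sources used here. Per the table itself, the authors deposited CPM: the columns sum to 999047 to 999508. In each library 100% of its nonzero values are whole reads, to within 0.1 read, once divided by the CPM of 1 read. That division gave the reads. Reads without molecular identifiers are not independent molecules, so intervals and floors cover counting error only.

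Genes whose mean over the 6 libraries reached 1 CPM (11716) were tested with limma 3.58.1 (R 4.3.3, mean-variance trend) on log2(CPM + 1), two-sided, with Benjamini-Hochberg adjustment over all of them and a threshold of 0.05. Receptor ratios were compared by exact permutation. Fgfr4, Fgf1, Fgf2 and Fgf11 did not reach the minimum. From each pathway list, up to 4 genes past the threshold or the 2 of smallest p were to be named. One gene so chosen is not reported here. Others named there by function were chosen after their values were seen. Nearest genes leave out predicted models and pseudogenes. Members and lists were chosen with earlier results of these data known. Alternatives were pseudocounts of 0.5 and 5, no filter or a minimum of 5 CPM, TMM and quantile scaling, edgeR 4.0.16 and DESeq2 1.42.0 on the recovered reads, and leaving out libraries. Marker lists of other cells were also summed: 11 muscle genes summed to 501.9 CPM for wild type replicate 15, which lay apart, to 70.1 and 63.7 CPM for the other wild type libraries, and to 17.4, 28.3 and 67.6 CPM for p63 alphaKO (all 6 tested were lower, none past the threshold, with a median log2 fold change of -2.47), 6 endothelial genes at most 5.3 CPM, 6 immune genes at most 0.9 CPM and 5 nerve and Schwann genes at most 10.7 CPM. Gene models are from GENCODE vM21 on GRCm38.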

Additional observations from a re-analysis of the deposited data

How the results depend on the processing

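Of the 8 genes and the 99 other pathway genes, none of those tested passed under any of the 15 alternatives run. As reported, 4 of the 8 and 74 of the 99 were tested. Fgf1, Fgf2 and Fgf11 were tested only with no filter, and Fgfr4, with no read, under no setting. Fgfr1 kept its direction in 14 of 14 in which it was tested (it is under a minimum of 5 CPM) and Fgfr3 in 15 of 15. Of all genes, 5 passed as reported, 2 and 3 with pseudocounts of 0.5 and 5, 1 with no filter, 2 with a minimum of 5 CPM, 2 by edgeR, 18 by DESeq2, 2 to 13 with 1 library left out (13 without p63 alphaKO replicate 11), and 48 without both wild type replicate 15 and p63 alphaKO replicate 11. Values near 0 changed sign, and the cause was not tested. Fgfr2 was at 0.025 by edgeR, 0.03 by DESeq2, -0.27 to 0.31 without 1 library and 0.29 without both. Fgfbp1 was at -0.012 with TMM scaling, -0.028 by edgeR, -0.021 by DESeq2 and -0.11 to 0.17 without 1 library, and at 0.26 without both. Fgf22 was at 0.09 with a pseudocount of 0.5, -0.77 to 0.49 without 1 library and 0.6 without both. Fgf3 was at -0.002 with TMM scaling, -0.07 with quantile scaling and -0.57 to 0.44 without 1 library. Ptbp1 was at -0.49 to 0.11, and the log2 ratio of Fgfr1 to Fgfr3 at -0.97 to 0.1, without 1 library. No paired analysis was possible because the groups share no replicate numbers. Depth limits Fgfr1, at 1 to 9 reads per p63 alphaKO library, and left Fgf1, Fgf2 and Fgf11 untested in the fit as reported. The receptor ratios and the nearest genes were put to alternatives chosen after seeing the data.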
